A study of Mus musculus with 6 samples.

Results

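The 33 genes described here encode enzymes of sterol and fatty acid synthesis, many of them known targets of the sterol regulatory element-binding proteins (SREBPs), together with the SREBP genes and their regulators. They were taken by symbol from a list of 23 cholesterol branch genes and 10 fatty acid branch genes, out of 20756 genes in the table. All 33 were present, and all 33 passed the filter of at least 1 CPM (reads of a gene scaled to a common library total) in 3 or more of the 6 libraries. They were measured in organoids, which are epithelial structures grown in a basement membrane gel, derived from a liver metastasis that an intestinal tumor of C57BL/6 mice had formed. The sgPrkci group, 3 libraries, carried a CRISPR guide against Prkci, which encodes protein kinase C lambda/iota of the atypical family, and is described in the labels as its knockout. The sgScr group, 3 libraries, carried a scrambled guide, is spelled sgScbr in the genotype label and is described as wild type. Both groups were untreated, were grown in the same EGF-containing culture and were collected 72 h after plating. The age of the animals, the position of the guide and the number of clones behind each group are not given in the labels, so the comparison is between these 2 lots of edited organoids, called biological replicates by the series text.

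SREBPs are transcription factors made as precursors in the membrane of the endoplasmic reticulum. When sterols are scarce the escort protein SCAP carries them to the Golgi, where proteases release the active domain. When sterols are plentiful the INSIG proteins hold SCAP back. SREBP-2 is known mainly for the genes of cholesterol synthesis, and SREBP-1 for those of fatty acid synthesis. Proliferating epithelium and tumors draw on both routes for membrane.

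The libraries were 3' tag libraries, in which each mRNA is read once near its poly(A) end, so a CPM value needs no correction for length. The recovered reads summed to 2651355, 2141125 and 2815760 in the sgPrkci libraries and to 2982916, 3048170 and 2821908 in the sgScr libraries, so that 1 read was worth 0.328 to 0.467 CPM. Prkci itself averaged 52.4 ± 4.99 CPM in sgPrkci and 54.9 ± 8.60 CPM in sgScr (SD, n = 3 each; log2 fold change -0.06, adjusted p = 0.77); a 3' tag outside the edited site does not check the edit. Of 12 intestinal epithelial markers 11 were tested, and their summed level was 3906 to 4281 CPM in sgPrkci and 3614 to 4173 CPM in sgScr. At a limma adjusted p below 0.05, 3 of the 11 were higher in sgPrkci, Krt20 among them, and 3 were lower, Cdx2 among them. These shares, 27.3% each, stand beside 11.4% higher and 20.5% lower over all tested genes. Krt20, a keratin of mature enterocytes, had 23.0, 18.7 and 23.8 CPM in sgPrkci, against 6.03, 1.31 and 0.354 CPM in sgScr. Those sgScr values were 18, 4 and 1 reads. Cdx2, the intestinal identity factor, averaged 12.5 CPM in sgPrkci and 25.8 CPM in sgScr. The 7 hepatocyte markers measured, of 12 listed, summed to 1.07 to 1.89 CPM in sgPrkci and to 1.97 to 18.1 CPM in sgScr, with Ttr at 0 in every library. The 3 immune markers measured, of 8 listed, summed to 7.94 to 12.4 CPM in sgPrkci and 5.25 to 7.71 CPM in sgScr, the 4 endothelial markers measured, of 6 listed, reached at most 0.670 CPM with Pecam1 and Cdh5 at 0, and the 7 fibroblast markers measured, of 8 listed, reached at most 2.80 CPM. Of the hepatocyte list, Apoa1 had 1.13, 0.467 and 0.355 CPM in sgPrkci, against 16.1, 1.64 and 5.67 CPM in sgScr. Its log2 fold change was -2.05 (limma, adjusted p = 0.012). Of the immune list, Cd68 had 10.9, 7.94 and 11.4 CPM in sgPrkci, against 7.38, 5.25 and 4.96 CPM in sgScr. Its log2 fold change was 0.69 (limma, adjusted p = 0.029). Both calls were lost in some alternative fits described below. The part of these differences in the results was not tested. In bulk RNA, fewer cells of a type and less RNA per cell cannot be told apart.

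Promoter windows were examined because members that moved together belong to a gene set named for a shared DNA-binding factor. RefSeq windows on GRCm38.p6, running from 250 bases before to 50 bases after the gene start, matched 26 of the 33 genes. Fdps, Fdft1, Sqle, Stard4, Scd1, Scd2 and Fads1 had no matching window. Stretches of 80 bases from the windows of 6 genes are shown: the first 3 hold the sterol-element-like letters, the next 2 hold an E-box and belong to called cholesterol genes, and the last is the fatty acid synthase promoter. Capitals mark TCACNCCA (a sterol-element-like pattern), CCAAT or its complement ATTGG (the pattern of the factor NF-Y), and CACGTG (an E-box). In the Fasn window the last CCAAT overlaps an ATTGG on the other strand. Each is written 5' to 3' on the strand of the gene.
Hmgcs1, chr13:119690161-119690240, plus strand: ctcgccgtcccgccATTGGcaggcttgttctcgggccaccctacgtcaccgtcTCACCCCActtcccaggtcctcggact
Msmo1, chr8:64733689-64733768, minus strand: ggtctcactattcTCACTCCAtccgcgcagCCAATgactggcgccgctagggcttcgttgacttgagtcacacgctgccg
Srebf2, chr15:82147079-82147158, plus strand: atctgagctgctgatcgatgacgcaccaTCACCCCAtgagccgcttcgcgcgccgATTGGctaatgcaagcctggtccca
Hsd17b7, chr1:169969316-169969395, minus strand: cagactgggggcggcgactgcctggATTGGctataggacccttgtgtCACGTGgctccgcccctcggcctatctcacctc
Insig1, chr5:28071272-28071351, plus strand: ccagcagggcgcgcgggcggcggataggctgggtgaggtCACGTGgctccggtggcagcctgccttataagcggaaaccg
Fasn, chr11:120824578-120824657, minus strand: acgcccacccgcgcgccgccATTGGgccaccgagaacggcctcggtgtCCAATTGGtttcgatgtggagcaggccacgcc

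TCACNCCA was searched on both strands and was found in the windows of Hmgcs1, Msmo1 and Srebf2, which are 3 of 26 genes (11.5%), against 4.47% of the 8939 tested genes with a window. CCAAT was found in 21 of 26 (80.8%), against 43.1% of tested genes. It stood in 17 of 19 cholesterol branch windows and in 4 of 7 fatty acid branch windows. The windows without it were those of Acat2, Scap, Acaca, Elovl6 and Fads2. GGGCGG, the pattern of Sp1, was found in 22 of 26 (84.6%), against 70.8% of tested genes, and is not capitalised above. CACGTG was found in 5 of 26 (19.2%), in Hsd17b7, Sc5d, Dhcr7, Insig1 and Scap, against 12.0%. A match is a description of letters and not a site, and the absence of a match says only that the letters are not in that window.

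The question of the comparison is how transcripts of sterol and fatty acid synthesis differ between organoids carrying the Prkci guide and organoids carrying the scrambled guide. At an adjusted p below 0.05 (limma on log2(CPM + 1), Benjamini-Hochberg over 12195 tested genes) 10 of the 33 genes were higher in sgPrkci, 4 were lower and 19 did not pass. Over all tested genes 11.4% were called higher and 20.5% lower, or 31.8% in either direction; genes called higher made up 30.3% of the members and genes called lower 12.1%. The groups did not overlap for 16 members (12 with sgPrkci on top and 4 with sgScr on top), against 43.0% of all tested genes (15.9% higher and 27.1% lower). With TMM scaling 15 members were higher and 3 lower (15.7% and 14.9% of all tested genes), with edgeR 15 and 4 (15.9% and 14.7%), with DESeq2 12 and 2 (11.7% and 9.17%), and with chromosome medians removed 14 and 2 (13.1% and 13.3%). The median log2 fold change was 0.15 over the 33 genes and -0.11 over all tested genes. In the cholesterol branch 8 of 23 genes were higher and 1 was lower, with a median of 0.17. In the fatty acid branch 2 of 10 were higher and 3 were lower, with a median of -0.06. Hmgcs1, Msmo1, Hsd17b7, Sc5d, Insig1, Insig2, Acss2 and Fads1 were called in the same direction in this fit and in all 18 alternative fits. The summed level of the cholesterol branch was 4366, 4225 and 4205 CPM in sgPrkci, against 3333, 3231 and 3316 CPM in sgScr, and every sgPrkci sum was above every sgScr sum. Much of this gap came from Hmgcs1 (means of 1084 CPM in sgPrkci and 589 CPM in sgScr) and Msmo1 (660 and 477 CPM).

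**Figure D1:**
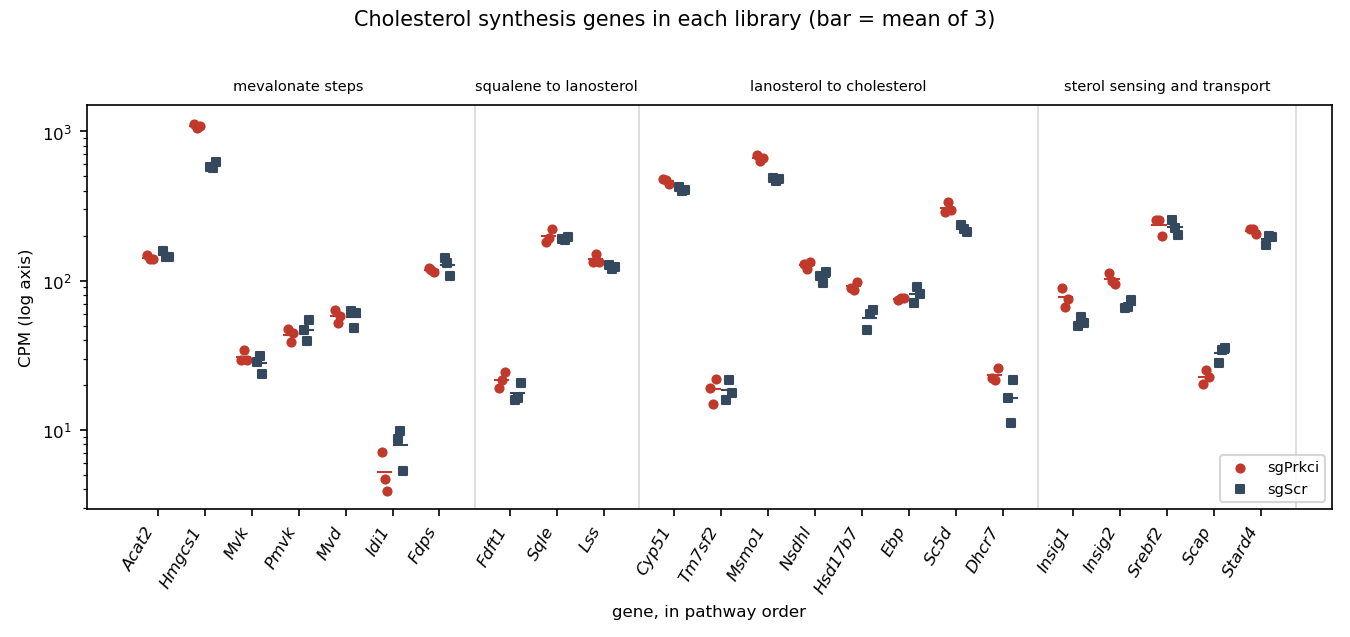
Levels of the 23 cholesterol branch genes in each library (CPM, log axis), sgPrkci drawn before sgScr for each gene. The sgPrkci points lie above all sgScr points for Hmgcs1 (1049 to 1122 CPM against 566 to 622 CPM) and below all of them for Scap (20.4 to 25.2 CPM against 28.2 to 35.4 CPM).

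The mevalonate stage, which builds isoprenoid units from acetyl-CoA, held 7 of the listed genes, and 1 of them rose. That share of 14.3% was near the 11.4% of all tested genes called higher. Hmgcs1, the cytosolic synthase that makes HMG-CoA, lies on chromosome 13 at 119690379 to 119708260 (GRCm38) and had 1122, 1049 and 1081 CPM in sgPrkci, against 579.6, 566 and 622 CPM in sgScr. The lowest sgPrkci library was well above the highest sgScr library. The log2 fold change was 0.88 ± 0.07 (SE; 1.84-fold, adjusted p = 6.3e-11), and its 95% interval ran from 0.73 to 1.02. None of the other 6 was called. Acat2, which condenses acetyl-CoA at the head of the route, averaged 142 ± 5.70 CPM in sgPrkci and 148 ± 7.47 CPM in sgScr (95% interval of the log2 fold change -0.24 to 0.13). The kinases Mvk and Pmvk, the decarboxylase Mvd and the farnesyl diphosphate synthase Fdps had log2 fold changes between -0.10 and 0.15. Fdps, which supplies farnesyl units for both sterols and protein prenylation, had 122, 118 and 114 CPM in sgPrkci, against 142, 131 and 107 CPM in sgScr, and these ranges overlapped. Idi1, the isomerase before Fdps, had the lowest level of the stage, 7.17, 4.67 and 3.91 CPM in sgPrkci against 8.72, 9.84 and 5.32 CPM in sgScr. With 40 and 71 reads in all, its difference of -0.52 had an interval from -1.07 to 0.04 and was not called.

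The next 3 enzymes commit farnesyl units to sterols, and none was called. Fdft1, squalene synthase, averaged 21.7 ± 2.64 CPM in sgPrkci and 17.6 ± 2.60 CPM in sgScr (log2 fold change 0.29, adjusted p = 0.21). Sqle, the squalene epoxidase, averaged 199 ± 20.7 CPM in sgPrkci and 191 ± 4.51 CPM in sgScr. Lss, which closes the ring to lanosterol, had 132, 151 and 134 CPM in sgPrkci, against 127, 119 and 123 CPM in sgScr. Its groups did not overlap, yet its log2 fold change of 0.17 did not pass (adjusted p = 0.17; 0.0066 to 0.48 over the alternatives).

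The conversion of lanosterol to cholesterol was the stage with the most calls, 5 higher and 0 lower of 8 genes. Its median log2 fold change was 0.36. The 62.5% called higher stands beside 11.4% of all tested genes, and the higher genes numbered 3 to 6 over the alternatives. The division into stages was drawn up after the values were seen, so the count describes these libraries only. The median deviation of these 8 genes from the sgScr mean was 0.33, 0.30 and 0.37 log2 units in the sgPrkci libraries, against 0.03, -0.03 and 0.02 in the sgScr libraries. Msmo1, the C-4 methyl sterol oxidase, had 691, 628 and 661 CPM in sgPrkci, against 489, 461 and 481 CPM in sgScr. All sgPrkci libraries were above all sgScr libraries, and the log2 fold change was 0.47 ± 0.07 (adjusted p = 1.3e-05). Nsdhl, the decarboxylating dehydrogenase of the same demethylation complex, had 129.7, 119.6 and 132 CPM in sgPrkci, against 107, 96.5 and 114 CPM in sgScr. These groups did not overlap either, but the gap was small and the call (0.26 ± 0.10, adjusted p = 0.042) was lost without sgPrkci replicate 1 (adjusted p = 0.12), without sgPrkci replicate 3 (0.13) or without sgScr replicate 2 (0.21), in a range of 0.0047 to 0.21 over the alternatives. Hsd17b7, the 3-keto reductase that ends the demethylation, had 89.8, 86.9 and 97.7 CPM in sgPrkci, against 46.6, 59.7 and 63.4 CPM in sgScr. Its sgPrkci libraries were close together and clear of the sgScr libraries (log2 fold change 0.69 ± 0.12, 1.62-fold, adjusted p = 4.1e-05). So all 3 listed enzymes that remove the C-4 methyl groups were called higher.

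Sc5d, the C-5 desaturase, had 289, 336 and 297 CPM in sgPrkci, against 236, 219.8 and 211 CPM in sgScr. The groups were apart and the log2 fold change was 0.46 ± 0.09 (adjusted p = 0.00011). Dhcr7, the reductase of 7-dehydrocholesterol, had 22.3, 21.5 and 25.9 CPM in sgPrkci, against 16.4, 11.2 and 21.6 CPM in sgScr. One sgPrkci library lay just under the highest sgScr library. The call (0.52 ± 0.20, adjusted p = 0.043) rested on 178 and 144 reads and was lost without sgPrkci replicate 1 (adjusted p = 0.08), 2 (0.052) or 3 (0.16) and without sgScr replicate 2 (0.32), where the log2 fold change was 0.28. DESeq2 gave it an adjusted p of 0.081, and the range over the alternatives was 0.0067 to 0.32. Cyp51, the C-14 demethylase that opens the stage, had 478, 474 and 446 CPM in sgPrkci, against 425, 395 and 406 CPM in sgScr. Its groups were apart, and its log2 fold change of 0.19 missed the threshold (adjusted p = 0.058), which it passed with TMM scaling (adjusted p = 0.0038) and without sgScr replicate 1 (0.036), in a range of 0.0038 to 0.24 over the alternatives. Tm7sf2, a C-14 reductase, and Ebp, the sterol isomerase, were not called, with log2 fold changes of 0.02 and -0.09 and intervals of -0.36 to 0.40 and -0.31 to 0.14.

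Of the 5 genes of sterol sensing and transport, both INSIG genes rose and the SCAP gene fell. Insig1, itself known as a target of SREBPs, had 89.8, 66.3 and 75.6 CPM in sgPrkci, against 49.3, 56.8 and 52.1 CPM in sgScr. Insig2, which retains SCAP in the same way but is not known to depend on SREBPs as Insig1 does, had 113, 99.0 and 95.2 CPM in sgPrkci, against 65.4, 66.6 and 74.4 CPM in sgScr. Both were higher in every sgPrkci library than in any sgScr library. Their log2 fold changes were 0.53 ± 0.12 (adjusted p = 0.0011) for Insig1 and 0.56 ± 0.11 (adjusted p = 0.00016) for Insig2. Scap, the escort protein, had 20.4, 25.2 and 22.7 CPM in sgPrkci, against 28.2, 34.1 and 35.4 CPM in sgScr. It was lower in every sgPrkci library (-0.50 ± 0.16, 0.709-fold, adjusted p = 0.015), on 172 and 288 reads. With TMM scaling its log2 fold change was -0.40 (adjusted p = 0.052), and the call was also lost without sgPrkci replicate 1 (adjusted p = 0.076), sgScr replicate 2 (0.069) or sgScr replicate 3 (0.068), in a range of 0.0064 to 0.17 over the alternatives.

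Srebf2, the gene of SREBP-2, had 255, 256 and 197 CPM in sgPrkci, against 254, 226 and 203 CPM in sgScr. The groups overlapped, and the log2 fold change of 0.05 had an interval from -0.16 to 0.26. Stard4, a carrier of cholesterol between membranes, had 222, 220.4 and 206 CPM in sgPrkci, against 173, 200.1 and 197 CPM in sgScr. Its groups did not overlap, and its log2 fold change of 0.19 was not called (adjusted p = 0.1; 0.0049 to 0.33 over the alternatives).

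The fatty acid branch moved in both directions. Acss2 and Scd2 rose, Acaca, Fasn and Fads1 fell, and 5 genes were not called. The summed level of the branch was 2604, 2384 and 2491 CPM in sgPrkci, against 1807, 2078 and 2164 CPM in sgScr, and Scd2 alone made up most of each sum. The median gene deviated from the sgScr mean by -0.12, -0.09 and -0.06 log2 units in the sgPrkci libraries, against -0.02, 0.03 and -0.05 in the sgScr libraries. The median log2 fold change of the branch, -0.06 beside -0.11 over all tested genes, was 0.04 with TMM scaling and 0.21 with chromosome medians removed, so its sign depended on the scaling.

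**Figure D2:**
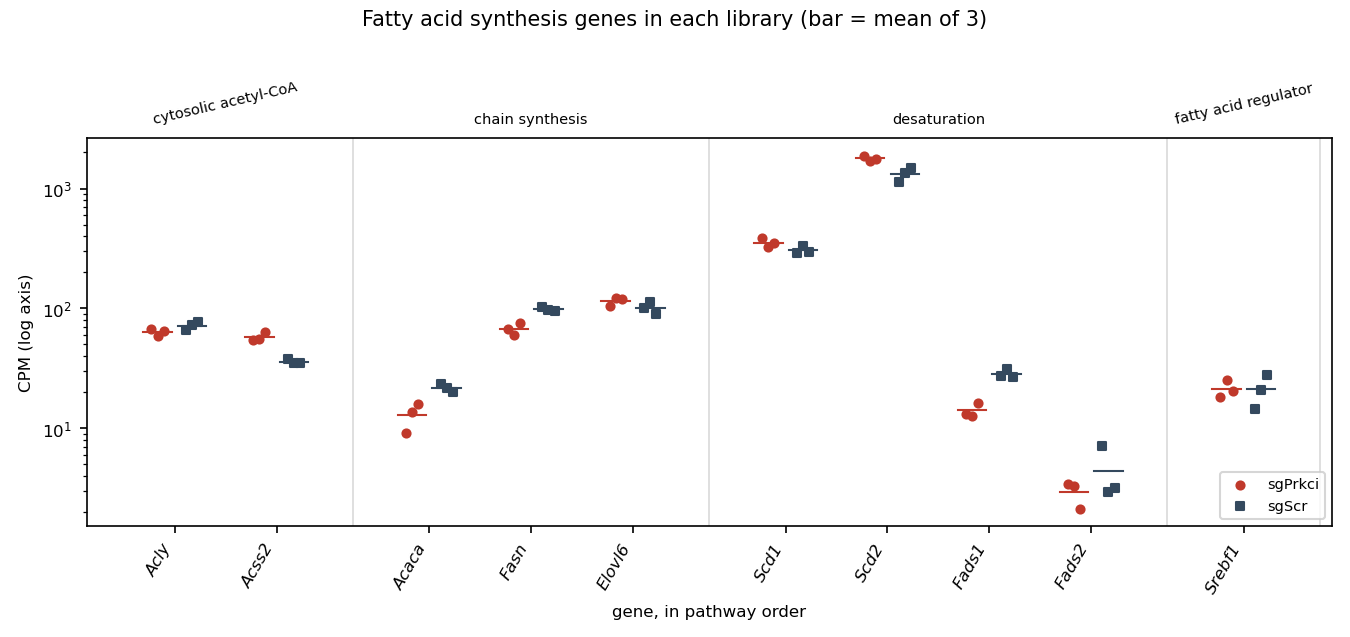
Levels of the 10 fatty acid branch genes in each library (CPM, log axis), sgPrkci drawn before sgScr for each gene. Acss2 and Scd2 lie higher in all 3 sgPrkci libraries, and Acaca, Fasn and Fads1 lie lower in all 3.

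Cytosolic acetyl-CoA is supplied by Acly, which splits citrate, and by Acss2, which activates acetate. Acss2 had 54.3, 55.6 and 63.2 CPM in sgPrkci, against 37.9, 35.1 and 34.7 CPM in sgScr. All sgPrkci libraries were higher (log2 fold change 0.67 ± 0.13, 1.59-fold, adjusted p = 0.00015). Acly had 67.1, 58.8 and 65.0 CPM in sgPrkci, against 65.7, 72.2 and 76.9 CPM in sgScr. These groups overlapped and Acly was not called (-0.17, 95% interval -0.40 to 0.07). Within a library there were 0.809, 0.944 and 0.973 reads of Acss2 per read of Acly in sgPrkci, against 0.577, 0.486 and 0.452 in sgScr, a pair chosen after the values were seen and given without a test.

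Both listed steps that commit acetyl-CoA to a fatty acid chain were lower in sgPrkci. Both genes lie on chromosome 11, where the median of tested genes with a mean of at least 10 CPM was -0.40. Neither was called with that median removed (Acaca -0.35, adjusted p = 0.19, and Fasn -0.14, adjusted p = 0.38). Acaca, acetyl-CoA carboxylase 1, had 9.05, 13.5 and 16.0 CPM in sgPrkci, against 23.5, 21.7 and 20.2 CPM in sgScr. Fasn, fatty acid synthase, at 120805846 to 120824547 on chromosome 11, had 66.8, 60.2 and 76.0 CPM in sgPrkci, against 103, 96.8 and 94.3 CPM in sgScr. Neither gene's groups overlapped. The log2 fold changes were -0.75 ± 0.20 (0.596-fold, adjusted p = 0.0041) for Acaca, on 98 and 193 reads, and -0.53 ± 0.11 (adjusted p = 0.00037) for Fasn. DESeq2 gave Acaca -0.65 with an adjusted p of 0.075. Elovl6, which lengthens palmitate to stearate, averaged 115 ± 9.84 CPM in sgPrkci and 101 ± 11.6 CPM in sgScr and was not called (0.19, adjusted p = 0.18; 0.036 to 0.53 over the alternatives).

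Among the 4 listed desaturases 1 gene rose and 1 fell, 25.0% each, beside 11.4% higher and 20.5% lower over all tested genes. Scd2, a stearoyl-CoA desaturase and the most abundant of the 33 genes, had 1881, 1709 and 1760.1 CPM in sgPrkci, against 1137, 1355 and 1495 CPM in sgScr. It was higher in every sgPrkci library (0.43 ± 0.08, 1.35-fold, adjusted p = 0.00011; 0.062 without limma's trend and robust settings), while its sgScr libraries were spread more widely. Its paralogue Scd1 had 387, 324 and 353 CPM in sgPrkci, against 290.0, 329.7 and 297 CPM in sgScr. These overlapped by 1 library, and the log2 fold change of 0.21 missed the threshold (adjusted p = 0.056), which it passed with TMM scaling (0.0047), without sgPrkci replicate 2 (0.03) and without sgScr replicate 2 (0.044), in a range of 0.0045 to 0.29 over the alternatives. The labels do not say how reads that match both copies were counted, so the split between Scd1 and Scd2 is uncertain.

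Fads1, the delta-5 desaturase of polyunsaturated fatty acids, had 13.2, 12.6 and 16.3 CPM in sgPrkci, against 27.5, 31.2 and 26.6 CPM in sgScr. Every sgPrkci library was far below every sgScr library (-0.97 ± 0.17, 0.51-fold, adjusted p = 6.4e-05), on 108 and 252 reads. It was the member with the largest fall. Fads2, the delta-6 desaturase, had 3.39, 3.27 and 2.13 CPM in sgPrkci, against 7.04, 2.95 and 3.19 CPM in sgScr. With 22 and 39 reads, a difference was not detectable at this depth (95% interval -1.04 to 0.25). Srebf1, the gene of SREBP-1, had 18.1, 25.2 and 20.6 CPM in sgPrkci, against 14.4, 20.996 and 27.6 CPM in sgScr, with overlapping groups and an interval of -0.35 to 0.46. Transcript levels of both SREBP genes thus differed by less than the spread between libraries; the activity of the proteins was not measured.

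**Figure D3:**
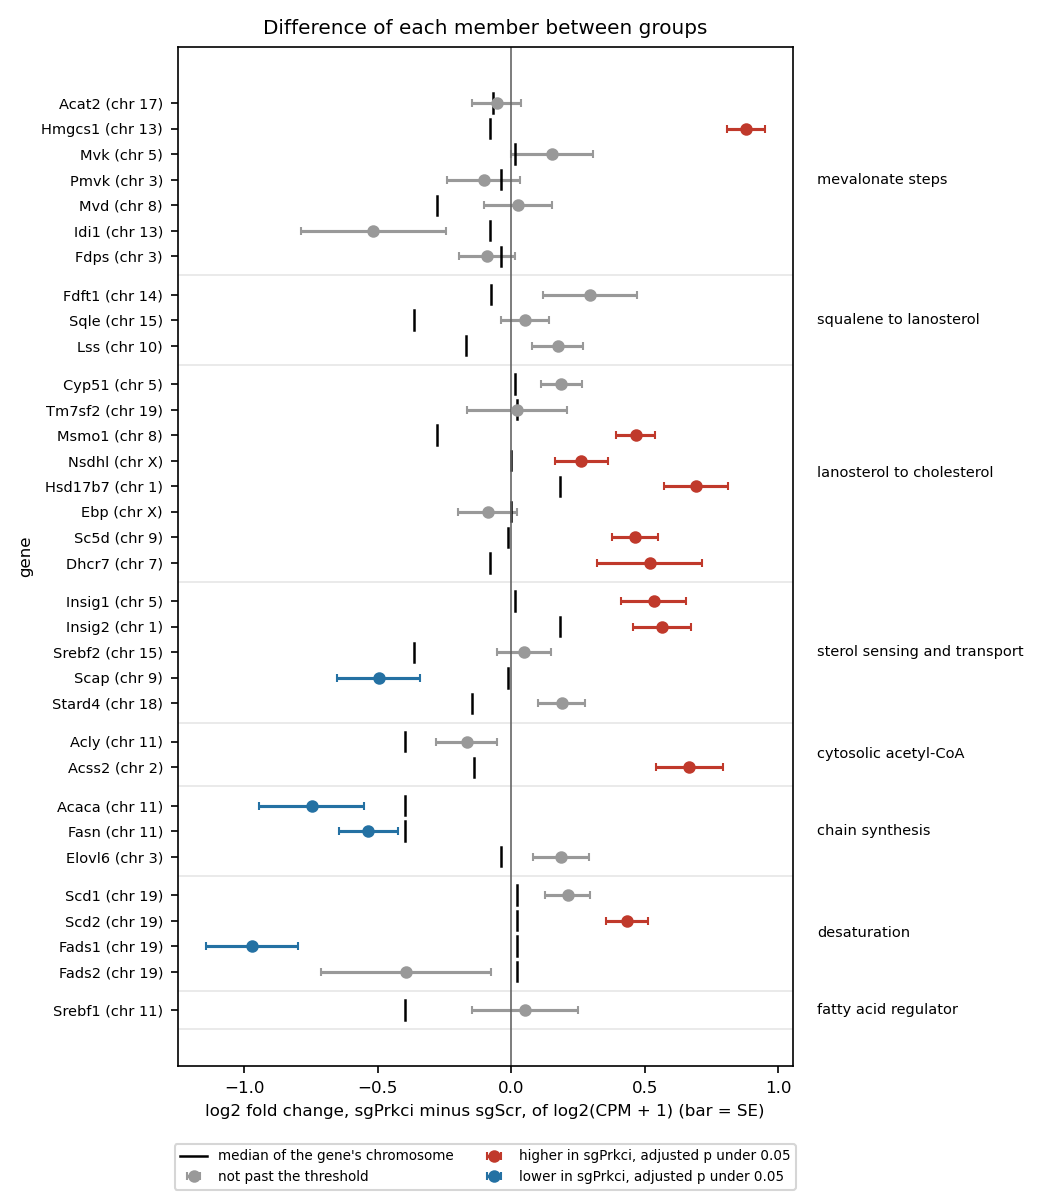
Log2 fold change, sgPrkci over sgScr on the log2(CPM + 1) scale, of each of the 33 genes, in order of the pathway; bars are the SE of the fit. Red marks genes called higher, blue genes called lower and grey genes not called. The black tick is the median log2 fold change of tested genes on the same chromosome with a mean of at least 10 CPM. Hmgcs1 (0.88) and Fads1 (-0.97) stand at the ends.

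The differences of all genes were not even along the genome, and this touches the fatty acid branch. On chromosome 11 the median log2 fold change of tested genes with a mean of at least 10 CPM was -0.40. Of all tested genes on this chromosome 45.3% were called lower and 2.67% higher. Acly, Acaca, Fasn and Srebf1 lie on it. With each chromosome's median removed, where Acaca and Fasn lost their calls, Acly was at 0.23 (adjusted p = 0.13) and Srebf1 at 0.45 (adjusted p = 0.086). The 6 fatty acid genes on other chromosomes had 2 higher (33.3%) and 1 lower (16.7%) and a median of 0.20. Over all tested genes, chromosome 11 included, 11.4% were higher and 20.5% lower. Over the alternatives the adjusted p ranged from 9.3e-05 to 0.38 for Fasn and from 0.0018 to 0.19 for Acaca. The difference of these 4 genes and that of their chromosome cannot be told apart here.

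Chromosomes 8 and 15 also had low medians, -0.28 and -0.37. Sqle and Srebf2, on chromosome 15, were at 0.42 (adjusted p = 0.00072) and 0.41 (adjusted p = 0.0026) once its median was removed, and were then called higher; without that step their ranges overlapped between groups. Msmo1, on chromosome 8, was at 0.75 by the same measure. Hsd17b7 and Insig2 lie on chromosome 1, where the median was 0.18, and kept their calls with it removed (0.51, adjusted p = 0.0022, and 0.38, adjusted p = 0.010). Leaving out chromosomes 8, 11 and 15, 9 of 25 members were higher (36.0%) and 2 lower (8.0%), with a median of 0.19. Over all tested genes, those chromosomes included, 11.4% were higher and 20.5% lower. On chromosomes 8, 11 and 15 themselves 32.3%, 45.3% and 42.0% of tested genes were called lower. The shares over all genes outside them were not computed. Fads1 was at -0.99 and Hmgcs1 at 0.96 after the removal.

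Ratios of reads within a library do not depend on the scaling of libraries. The 6 pairs were chosen after the values were seen and carry no test. There were 9.18, 8.87 and 9.49 reads of Hmgcs1 per read of Fdps in sgPrkci, against 4.08, 4.32 and 5.83 in sgScr. There were 28.2, 28.4 and 23.2 reads of Scd2 per read of Fasn in sgPrkci, against 11.01, 14.0 and 15.9 in sgScr. Neither pair overlapped between groups. Fasn lies on chromosome 11 (median -0.40) and Scd2 on chromosome 19 (median 0.02). With these medians removed Fasn was at -0.14 (limma, adjusted p = 0.38) and Scd2 at 0.41 (adjusted p = 0.00026). The part of the chromosomes in the ratio of Scd2 to Fasn was not tested. Insig1 had 4.41, 2.63 and 3.33 reads per read of Scap in sgPrkci, against 1.75, 1.66 and 1.47 in sgScr, again without overlap. Insig2 against Insig1 (1.26, 1.49 and 1.26 in sgPrkci, against 1.33, 1.17 and 1.43 in sgScr) and Scd2 against Scd1 (4.87, 5.28 and 4.99 in sgPrkci, against 3.92, 4.11 and 5.04 in sgScr) overlapped.

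**Figure D4:**
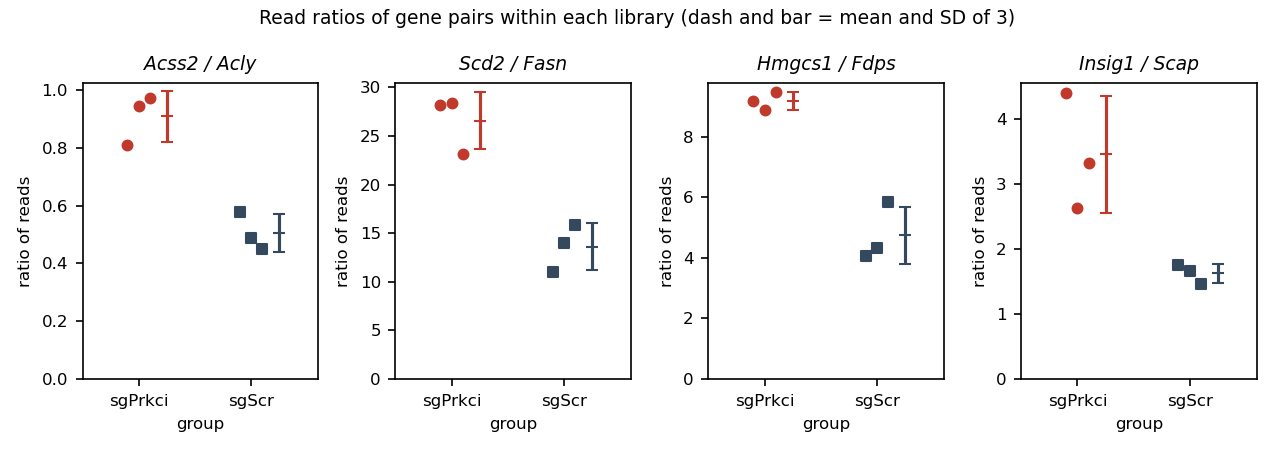
Reads of one gene per read of another within each library, for 4 pairs of members (linear axis), sgPrkci left of sgScr. The pairs are Acss2 per Acly, Scd2 per Fasn, Hmgcs1 per Fdps and Insig1 per Scap. The groups are apart for all 4, such as Hmgcs1 per Fdps (8.87 to 9.49 against 4.08 to 5.83). Insig2 per Insig1 and Scd2 per Scd1, which overlap, are not drawn.

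Exons of 6 members overlap another gene of the table, and since the labels do not say whether the counting used strand, reads of the 2 genes may be mixed. Acss2 overlaps Gss on the opposite strand, which was 12.1 CPM in sgPrkci and 13.8 CPM in sgScr and was not called (-0.16, adjusted p = 0.60). Srebf1 overlaps Rai1, which fell to 30.2 CPM in sgPrkci, against 46.0 CPM in sgScr (adjusted p = 0.0018). Cyp51 overlaps Akap9, Fdft1 overlaps Ctsb and Tm7sf2 overlaps Vps51, none of which was called. Gm35986, which overlaps Elovl6, was too low to test.

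Genes around the pathway were taken from further lists. The 16 genes that process SREBPs, all tested, had 1 higher and 1 lower, and 2 higher and 0 lower with TMM scaling. Both shares, 6.25% each, were below the 11.4% of all tested genes called higher and the 20.5% called lower. With TMM scaling those were 15.7% and 14.9%. Sec23a, a coat protein of the vesicles that leave the endoplasmic reticulum, averaged 80.1 ± 9.65 CPM in sgPrkci and 60.1 ± 6.84 CPM in sgScr (0.41, adjusted p = 0.0092); without sgPrkci replicate 2 it was at 0.32 (adjusted p = 0.072; 0.0011 to 0.085 over the alternatives). Mbtps1, the site-1 protease, averaged 45.7 ± 4.93 CPM in sgPrkci and 59.0 ± 5.49 CPM in sgScr (-0.36, adjusted p = 0.028). It lies on chromosome 8, and with that chromosome's median removed it was at -0.08 (adjusted p = 0.68; 0.024 to 0.68 over the alternatives). It was also not called without sgPrkci replicate 3 (adjusted p = 0.14) or sgScr replicate 3 (0.13).

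Of 15 genes that use isoprenoids outside sterols, 0 were higher and 3 were lower, or 2 with TMM scaling; 3 of 15 is near the 20.5% of all tested genes called lower. Fnta, the shared subunit of the prenyltransferases, averaged 42.4 ± 2.11 CPM in sgPrkci and 71.2 ± 8.26 CPM in sgScr (-0.73, adjusted p = 2.9e-05). Fnta lies on chromosome 8, and with that chromosome's median removed it was at -0.45 (adjusted p = 0.0055). Pdss1, which makes the side chain of coenzyme Q, averaged 12.9 ± 3.50 CPM in sgPrkci and 22.8 ± 4.91 CPM in sgScr (-0.79, adjusted p = 0.0037); without sgScr replicate 2 it was at -0.64 (adjusted p = 0.054; 0.0008 to 0.055 over the alternatives). Zmpste24, the protease that trims prenylated lamin A, averaged 43.8 ± 5.71 CPM in sgPrkci and 55.8 ± 6.95 CPM in sgScr (-0.34, adjusted p = 0.047). Zmpste24 was not called without sgPrkci replicate 1 (0.22), sgPrkci replicate 3 (0.094), sgScr replicate 2 (0.22) or sgScr replicate 3 (0.11), in a range of 0.013 to 0.34 over the alternatives.

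The 17 genes of sterol export, storage and lysosomal exit had 13 tested, 4 higher and 2 lower, or 6 and 2 with TMM scaling. The 30.8% called higher was above the 11.4% of all tested genes, and the 15.4% called lower was below the 20.5%. With TMM scaling the shares of all tested genes were 15.7% and 14.9%. Abcg1, a sterol exporter, had 6.41, 10.7 and 4.26 CPM in sgPrkci, against 1.01, 1.31 and 0.709 CPM in sgScr (1.95, adjusted p = 2.7e-05). Its relative Abca1 had 4.90, 4.20 and 2.49 CPM in sgPrkci, against 0.335, 0.656 and 0.354 CPM in sgScr (1.72, adjusted p = 0.00029), on 29 and 4 reads. Both exporters, known as targets of the oxysterol receptor LXR, were low in sgScr and higher in every sgPrkci library. Lipa, the lysosomal lipase that frees cholesterol from its esters, had 0.377, 0 and 0 CPM in sgPrkci, against 5.70, 5.25 and 5.32 CPM in sgScr, which is 1 read against 48. Its depth-scaled level in sgScr was 41.3 times that in sgPrkci, with a 95% counting interval of 7.06 to 1663 (limma, adjusted p = 9.2e-07). Nceh1, a cholesteryl ester hydrolase, averaged 5.43 ± 1.13 CPM in sgPrkci and 15.6 ± 3.96 CPM in sgScr (-1.35, adjusted p = 5.7e-05). So both genes called lower encode enzymes that hydrolyse cholesteryl esters. Soat1, which makes the esters, averaged 132 ± 21.2 CPM in sgPrkci and 96.6 ± 8.46 CPM in sgScr (0.44, adjusted p = 0.0026; 0.00021 to 0.095 over the alternatives), and Npc2, which carries cholesterol out of lysosomes, averaged 218 ± 14.5 CPM in sgPrkci and 161 ± 15.5 CPM in sgScr (0.44, adjusted p = 0.0005). Abca1, Soat1 and Npc2 were named after their values were seen. Of the 7 listed genes of oxysterol and bile acid synthesis, 0 passed the filter.

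On the fatty acid side, 12 of 14 genes were tested in a list named for citrate and NADPH supply. That list also holds Mid1ip1 and Slc16a3, which supply neither, so its shares are those of a wider set. Of these 3 were higher and 4 lower, or 3 and 2 with TMM scaling. The shares of 25.0% and 33.3% stand beside 11.4% higher and 20.5% lower over all tested genes. With TMM scaling the shares of all tested genes were 15.7% and 14.9%. Idh1, a cytosolic source of NADPH, averaged 112 ± 4.44 CPM in sgPrkci and 65.1 ± 5.07 CPM in sgScr (0.78, adjusted p = 1.3e-06). Mid1ip1, which activates acetyl-CoA carboxylase, averaged 169 ± 2.24 CPM in sgPrkci and 115 ± 9.47 CPM in sgScr (0.56, adjusted p = 3.2e-05). Slc16a3, a lactate transporter, averaged 50.8 ± 7.57 CPM in sgPrkci and 89.7 ± 5.07 CPM in sgScr (-0.82, adjusted p = 4e-06). Of the 11 genes of the elongation cycle 8 were tested, with 1 higher and 1 lower, or 2 and 0 with TMM scaling. These shares were 12.5% each, near the 11.4% of all tested genes called higher and below the 20.5% called lower. Hacd1, a dehydratase of that cycle, averaged 90.0 ± 5.38 CPM in sgPrkci and 37.9 ± 2.33 CPM in sgScr (1.22, adjusted p = 1.9e-09). Hsd17b12, its ketoreductase, averaged 213 ± 3.41 CPM in sgPrkci and 261 ± 29.0 CPM in sgScr (-0.28, adjusted p = 0.014); it was not called without sgPrkci replicate 1 (0.051) or sgScr replicate 2 (0.14), in a range of 0.0035 to 0.25 over the alternatives.

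Fatty acid activation, triglyceride synthesis and lipid droplets had 21 of 25 genes tested. Of these 7 were higher and 6 lower, or 8 and 4 with TMM scaling. The shares of 33.3% and 28.6% stand beside 11.4% higher and 20.5% lower over all tested genes. With TMM scaling the shares of all tested genes were 15.7% and 14.9%. Acsl4, which activates arachidonate for membrane lipids, averaged 323 ± 45.4 CPM in sgPrkci and 159 ± 16.5 CPM in sgScr (1.01, adjusted p = 3.6e-09). Plin2, the coat protein of lipid droplets, averaged 23.5 ± 0.247 CPM in sgPrkci and 54.8 ± 4.85 CPM in sgScr (-1.18, adjusted p = 7.8e-08). Agpat5, an acyltransferase on chromosome 8, averaged 62.0 ± 7.62 CPM in sgPrkci and 121 ± 17.1 CPM in sgScr (-0.95, adjusted p = 2.1e-07). The direction within this list was thus mixed.

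Fatty acid oxidation had 22 of 27 genes tested, with 2 higher and 4 lower, and the list of energy and nutrient control had 23 of 24 tested, with 1 higher and 2 lower; with TMM scaling these were 2 and 2, and 4 and 2. As deposited, the shares for oxidation (9.09% higher and 18.2% lower) were near those of all tested genes (11.4% and 20.5%). For energy and nutrient control (4.35% and 8.70%) they were below them. With TMM scaling 15.7% of all tested genes were called higher and 14.9% lower. The 4 of 23 genes then higher in energy and nutrient control were near that 15.7%. Pparg, a nuclear receptor of fatty acids, averaged 34.6 ± 8.78 CPM in sgPrkci and 15.2 ± 2.19 CPM in sgScr (1.12, adjusted p = 2.5e-05). Acadl, the long-chain dehydrogenase, averaged 252 ± 13.2 CPM in sgPrkci and 177 ± 35.9 CPM in sgScr (0.53, adjusted p = 0.00044). Without limma's trend and robust settings Acadl was not called (adjusted p = 0.061). Eci1, an isomerase of beta-oxidation, averaged 24.3 ± 3.64 CPM in sgPrkci and 37.2 ± 5.01 CPM in sgScr (-0.59, adjusted p = 0.0039). DESeq2 did not call Eci1 (-0.51, adjusted p = 0.065). Trib3, a stress-induced pseudokinase, averaged 37.0 ± 2.43 CPM in sgPrkci and 95.2 ± 14.6 CPM in sgScr (-1.33, adjusted p = 1.2e-09). Of the AMPK subunits, Prkab1 averaged 60.8 ± 3.02 CPM in sgPrkci and 41.6 ± 3.39 CPM in sgScr (0.54, adjusted p = 0.0012), and Prkag1 averaged 40.9 ± 5.76 CPM in sgPrkci and 58.9 ± 10.0 CPM in sgScr (-0.51, adjusted p = 0.0048). Prkag1 lies on chromosome 15 and was at -0.15 with its median removed (adjusted p = 0.46; 0.0018 to 0.46 over the alternatives).

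**Figure D5:**
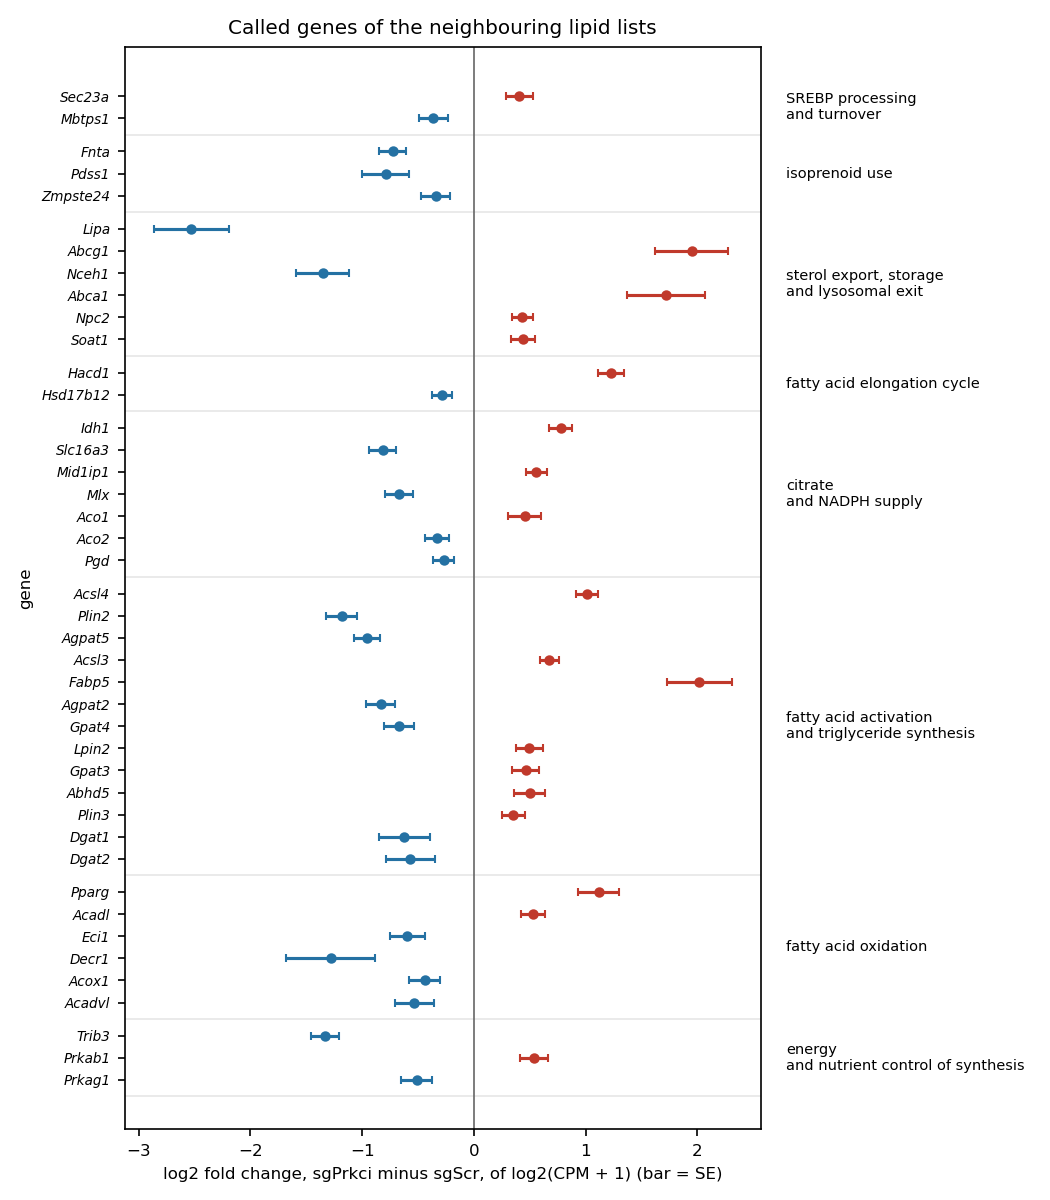
Log2 fold changes, sgPrkci over sgScr on the log2(CPM + 1) scale, of the called genes in the other lipid lists; bars are the SE of the fit. Red points are higher and blue points lower in sgPrkci. Sterol export, storage and lysosomal exit holds 4 higher and 2 lower genes of 13 tested. The list of isoprenoid use holds 3 lower and 0 higher of 15 tested. Of all tested genes 11.4% were called higher and 20.5% lower.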

How the data were processed

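The authors deposited 1 table of CPM values per gene, made from QuantSeq 3' FWD libraries sequenced on a NextSeq 500, with GRCm38 named in the submitters' processing notes. Which aligner and counter were used, with what strand setting and what handling of molecular identifiers, is not given in the sources used. Every one of 124536 values was a whole multiple of the value of 1 read (tolerance 1e-06), so reads per gene could be recovered; 100% came out whole.

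The groups were compared with limma (3.58.1, R 4.3.3) on log2(CPM + 1), with trend and robust settings, over 12195 genes at 1 CPM or more in at least 3 of 6 libraries, with Benjamini-Hochberg adjustment. All log2 fold changes are of CPM + 1, so those of genes at low levels are understated. A gene was called at an adjusted p below 0.05. On the recovered reads, edgeR (4.0.16) called 15.9% of tested genes higher and 14.7% lower, and DESeq2 (1.42.0) 11.7% and 9.17%. Other scalings, filters, pseudocounts and the removal of each library were also tried. Chromosome medians were taken over tested genes with a mean of at least 10 CPM. Two-sided tests were used. The step was tested on simulated data. No 2 libraries agreed within sampling noise.

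The members and the lists were chosen with earlier results of these data known. A gene of 1 list is not reported here. Within other lists the text names up to 3 called genes with the lowest p, and says where it names more. The ratio of reads between 2 genes was taken within a library. Gene positions came from GENCODE M21. Counting intervals cover counting error only. P-values measure the spread between these libraries, and whether separate edited cultures lie behind them is not given.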

Additional observations from a re-analysis of the deposited data

How the results depend on the processing

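With 3 libraries a group, p-values carry the spread of these libraries alone, and genes with few reads (Idi1, Fads2, Acaca, Dhcr7) had wide intervals. No paired analysis was possible because the labels of the 2 groups share no replicate number. Over all genes 3882 were called, against 2540 with DESeq2 and 2852 to 3794 with 1 library left out. Scaling moved the median of all tested genes by 0.09 log2 units, -0.11 as deposited and -0.02 with TMM. Of the cholesterol genes 6 to 12 were higher across alternatives; 1 was lower, and 0 with TMM, median-of-ratios, quantile and DESeq2, or 0 to 1 with 1 library left out. The cholesterol median of 0.17 became 0.28 with TMM, median-of-ratios, edgeR and DESeq2, and 0.33 with chromosome medians removed. Of the fatty acid genes 2 were higher, 4 with TMM, median-of-ratios and edgeR, 3 with quantile, DESeq2, totals that leave out Gm42418 and mitochondrial reads, without sgPrkci replicate 2 and without sgScr replicate 2, and 1 with limma without trend and robust settings; 3 were lower, 2 with DESeq2 and 1 with chromosome medians removed. The fatty acid median of -0.06 turned positive at 0.043 with TMM and median-of-ratios, 0.033 with quantile, 0.028 with edgeR and 0.030 with DESeq2. It was 0.21 with chromosome medians removed, and -0.12 to -0.0042 with 1 library left out. With a 5 CPM filter it was 0.052, because Fads2 did not pass that filter. The median of the remaining genes was then the unchanged value of Srebf1.

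Of 593 member values under alternatives, 517 kept their direction and side of the threshold, 22 lost and 28 gained a call, and 26 reversed, all in 10 members not called here. Acat2 reversed to 0.048 with TMM, 0.049 with median-of-ratios, edgeR and DESeq2 and 0.014 with chromosome medians removed. Pmvk was 0.0011 with edgeR and -0.22 to 0.0092 with 1 library left out, positive without sgScr replicate 3. Mvd was -0.095 to 0.094 with 1 library left out, negative without sgPrkci replicate 1 or sgScr replicate 2. Fdps was 0.012 with TMM and median-of-ratios. Ebp was 0.014 with TMM and median-of-ratios, 0.0071 with edgeR and 0.0076 with DESeq2. Sqle was -0.028 to 0.12 with 1 library left out, negative without sgPrkci replicate 3. Tm7sf2 was -0.0014 with chromosome medians removed, and -0.098 to 0.17 with 1 library left out, negative without sgPrkci replicate 1 or 3 or sgScr replicate 1. Srebf2 was -0.032 to 0.17 with 1 library left out, negative without sgPrkci replicate 1 or 2 or sgScr replicate 3. Acly was 0.23 with chromosome medians removed. Srebf1 was -0.18 to 0.26 with 1 library left out, negative without sgPrkci replicate 2 or sgScr replicate 1. Beyond what each setting's construction changes, the cause was not tested.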
